A study of Mus musculus with 16 samples.

Results

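The comparison reported here asks whether 2 kinds of mouse glioblastoma answered differently to the loss of tumour-associated macrophages (TAMs). For each gene, the response of a tumour kind is the mean level in its TAM depleted tumours minus the mean level in its controls. The Type 1 response was then subtracted from the Type 2 response. A difference of responses below 0 marks a gene that moved lower, or less high, in Type 2 than in Type 1, and a difference above 0 marks the reverse. The contrast needs every group, so 16 of the 16 libraries of the series entered it. In Type 1 there were 5 Control and 3 TAM depleted tumours, and in Type 2 there were 4 of each. All were transplanted tumours of models that the series title describes as lineage-based, profiled by bulk RNA sequencing with 1 library per tumour. The sources used here do not give the genotype, strain, age or sex of the animals, the cell each kind arose from, or the means and duration of TAM depletion. Nothing ties a tumour to an animal or a culture, and the spread that p-values measure is that between these samples.

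Glioblastoma is a malignant brain tumour in which macrophages that arrive from the blood and microglia, the resident macrophages of the brain, make up much of the non-malignant tissue. These cells engulf debris, present antigens on MHC class II molecules and secrete factors that act on vessels, matrix and tumour cells, and they depend on signalling through the CSF1 receptor. Glioblastomas grow into brain tissue, so a piece of tumour holds neurons and glia of the host beside tumour cells. In bulk RNA, fewer cells of a type and less RNA per cell cannot be told apart.

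Several properties of the libraries moved with the groups. Depth was 4.21 to 18.3 M (mega) reads. In Type 1 it was lower in controls (6.32 ± 0.741 M, SD, n = 5) than in depleted tumours (15.3 ± 0.907 M, SD, n = 3), and in Type 2 the groups overlapped (9.74 ± 4.98 M and 12.2 ± 5.22 M, SD, n = 4 each). Reads in 974 odour and pheromone receptor genes, whose products work in the nose, were 2666 per M reads or more in 9 libraries and 779 or less in the other 7. These are called high-background and low-background libraries. All 5 Type 1 controls were high-background and all 3 Type 1 depleted tumours low-background, so that background and depletion cannot be told apart in Type 1 and no within-set value of its response exists. In Type 2 each group had 2 libraries of each set. Of 4 equal classes by mean level, the lowest had a median response of -2.26 in Type 1 and -0.80 in Type 2 (log2 scale), while the highest had 0.58 and 0.30. Reads of 4 Y-linked genes summed to 64 to 657 in Type 1 controls and 1 to 174 in Type 1 depleted libraries, and to 37 to 880 and 0 to 30 in Type 2. Scaled for depth, the sums were 115.5 to 821.1 and 0.573 to 105.3 in Type 1, and 132.3 to 498.6 and 0 to 17.1 in Type 2. Y-linked RNA was thus lower without overlap in the depleted libraries of both kinds, with median responses of -4.15 and -5.07. The part of these properties in the differences below was not tested, except where a value is given.

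Macrophage transcripts gave a mixed picture of the label in Type 1. The summed level of 24 macrophage genes was 5545 to 8986 normalized counts in Type 1 controls and 7189 to 13040 in Type 1 TAM depleted libraries. In Type 2 the sums were 9062 to 33800 and 5007 to 9211, so only 1 depleted library reached the range of the controls. None of the 24 genes was at 0 in any library. Single genes differed from the sum: 17 of the 24 were lower in Type 1 depleted tumours, and Adgre1, the macrophage surface protein F4/80, had 97.5 to 166.5 normalized counts in Type 1 controls and 18.9 to 80.5 after depletion, without overlap (limma-trend adjusted p = 0.103). Mrc1 and Cd163, macrophage scavenging receptors, also lay lower without overlap, so that 3 of 24 did so against 39.1% of all genes that did not overlap in Type 1 in either direction. Ccr2, a monocyte receptor, had 54.1 to 66.3 and 12.6 to 31.5, also without overlap. The responses compared below are therefore those of tumours labelled TAM depleted.

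Of 26463 genes tested, 0 (0%) had a difference of responses past an adjusted p of 0.05 by limma-trend, a moderated linear model on log2(normalized count + 1), and the smallest adjusted p was 0.312. At an unadjusted p under 0.05 there were 2666 genes (10.1%), 1377 of them above 0 (5.2%) and 1289 below 0 (4.87%). The differences named below are therefore estimates that did not pass the threshold, and the text gives them with their standard errors. In the same fit, 956 genes (3.61%) were past it for the Type 2 response, 627 higher (2.37%) and 329 lower (1.24%), and 0 passed for the Type 1 response although 8019 (30.3%) had an unadjusted p under 0.05. The Type 1 count of 0 depended on the fit. It was 13721 with library quality weights, 8132 with the high-background and 8545 with the low-background Type 2 libraries only. Background and depletion coincide in Type 1, so these counts cannot tell them apart. The Type 2 count was 100 without Type 2 Control 3, 285 without Type 2 TAM depleted 2, 302 without Type 2 TAM depleted 1, 605 without Type 2 Control 1, 629 without Type 1 Control 2 and 635 without Type 1 Control 4. The median SE of a difference was 0.743, against 0.534 and 0.517 for the responses inside it. Log2 values of the normalized count plus 1 understate the change of low genes.

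Genes with an unadjusted p under 0.05 were mostly those that moved in opposite directions. Among these 2666 genes, 1163 (43.6%) were higher after depletion in Type 1 and lower in Type 2, a class that held 18.7% of all genes. A further 735 (27.6%) were lower in Type 1 and higher in Type 2 (10.8% of all genes), and 403 (15.1%) were higher in both and more so in Type 2. This sorting by sign uses the values that set the p, so the shares describe the contrast and test nothing. Over all genes the median difference was 0.16, and 56% of genes had a difference above 0. Across genes the responses of the kinds, which share no library, had a Pearson r of 0.504 and a Spearman rho of 0.551, and the relation of response to mean level is common to both.

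**Figure D1:**
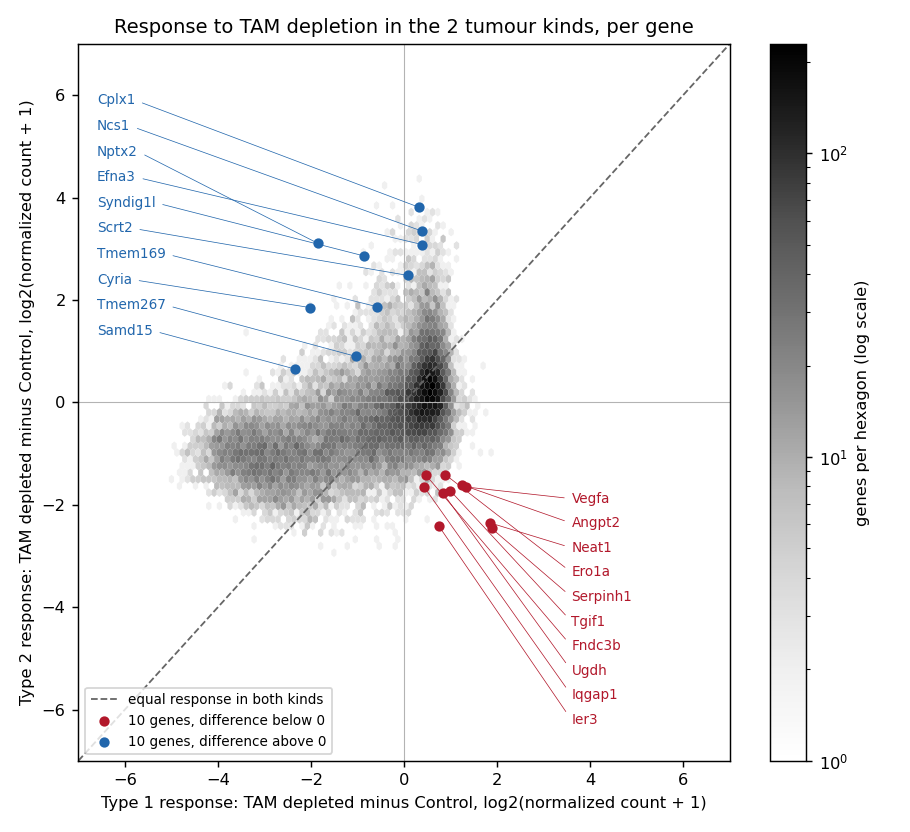
Each hexagon counts genes by their Type 1 response (x axis) and Type 2 response (y axis), both as TAM depleted minus Control on the log2(normalized count + 1) scale, with the dashed line at equal responses. The 10 named genes with a difference below 0 lie at the lower right, higher in Type 1 and lower in Type 2, and the 10 with a difference above 0 lie at the upper left or above the bulk of genes.

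The 10 named genes with a difference below 0 had the smallest p among annotated genes of that direction. They were Serpinh1, Fndc3b, Angpt2, Neat1, Iqgap1, Ero1a, Ugdh, Vegfa, Tgif1 and Ier3, with differences from -1.90 to -4.35. All 10 were higher in Type 1 depleted tumours and lower in Type 2 depleted tumours than in the controls of their kind. All 10 fell in Type 2 by limma-trend (adjusted p under 0.05), and 0 passed in Type 1. In Type 2 the depleted libraries lay below the controls without overlap in 10 of 10, against 3.39% of all genes in that direction and 7.25% in either. Over all genes, 1.24% fell past the threshold in Type 2. The Type 2 response is part of the difference that chose these genes, so both counts are a description and test nothing. The Type 2 call was lost in 1 of 33 alternatives for Fndc3b and Iqgap1, in 2 for Serpinh1 and in up to 16, for Vegfa. For 7 of them the Type 1 response stayed above 0 under all 33 alternatives, whereas that of Fndc3b and Iqgap1 fell to as low as -0.13 and -0.24 under quantile or cyclic loess scaling, and that of Ier3 to -0.25 with the background set as a term, which also turned that of Iqgap1.

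The genes at the head of this group include a collagen chaperone, an oxidase of the secretory pathway and a vessel growth factor, and their promoters are shown because the genes moved together. Sequences are the 250 bases before the RefSeq transcript start on GRCm38.p6, 5′ to 3′ on the gene's strand. Cplx1, from the opposite group, is given for comparison. Capitals mark ACGTG or its reverse complement CACGT, a core found in many hypoxia response elements and E-boxes (CACGTG contains both). Other forms of these elements were not searched or marked.
Serpinh1, chr7:99353240-99353489, minus strand: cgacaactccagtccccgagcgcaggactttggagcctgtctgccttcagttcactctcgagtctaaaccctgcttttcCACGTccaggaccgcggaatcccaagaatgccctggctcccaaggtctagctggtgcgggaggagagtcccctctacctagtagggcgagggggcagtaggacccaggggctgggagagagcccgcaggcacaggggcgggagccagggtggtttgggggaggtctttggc
Ero1a, chr14:45318573-45318822, minus strand: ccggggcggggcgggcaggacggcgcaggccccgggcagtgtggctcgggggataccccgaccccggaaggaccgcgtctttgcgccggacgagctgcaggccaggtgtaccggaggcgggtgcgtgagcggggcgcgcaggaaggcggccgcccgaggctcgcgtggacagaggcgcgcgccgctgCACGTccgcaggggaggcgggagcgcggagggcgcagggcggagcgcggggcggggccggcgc
Vegfa, chr17:46032378-46032627, minus strand: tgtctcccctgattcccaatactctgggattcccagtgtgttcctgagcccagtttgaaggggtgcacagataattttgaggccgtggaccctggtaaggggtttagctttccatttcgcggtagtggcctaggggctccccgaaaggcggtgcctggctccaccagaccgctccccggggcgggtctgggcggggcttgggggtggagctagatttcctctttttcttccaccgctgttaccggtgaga
Cplx1, chr5:108550028-108550277, minus strand: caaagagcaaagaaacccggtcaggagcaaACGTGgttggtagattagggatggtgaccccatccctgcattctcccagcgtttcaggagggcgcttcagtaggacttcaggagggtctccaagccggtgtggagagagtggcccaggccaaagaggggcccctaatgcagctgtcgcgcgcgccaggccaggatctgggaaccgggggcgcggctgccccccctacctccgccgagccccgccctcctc
The motif began 171 bases before the start in Serpinh1, 63 in Ero1a and 220 in Cplx1, and these letters are not in the Vegfa window printed. It was searched on both strands and occurred in 16.6% of 32851 promoter windows of this length, and in 24.5% of the 10943 genes that could have been named. Of the named genes with a window, 6 of 8 below 0 and 4 of 7 above 0 held it. The heat shock element GAANNTTC, also searched on both strands, was in 6.7% of windows and in 0 of these 15 genes. Both motifs were chosen after the results were seen, and a match is a description, not a site.

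Serpinh1 (chr7:99345376-99353239, GRCm38) encodes HSP47, the chaperone that collagen needs to fold in the endoplasmic reticulum, and had the smallest p. Its normalized counts were 187, 145, 98.7, 112 and 274 in Type 1 controls, 891, 587 and 348 in Type 1 depleted tumours, 3757, 1804, 1566 and 1311 in Type 2 controls and 424, 812, 136 and 318 in Type 2 depleted tumours. Neither kind had an overlap between depleted and control libraries, and the directions were opposite. The Type 1 response was 1.89 (SE 0.51) and the Type 2 response -2.46 (SE 0.49, limma-trend adjusted p = 0.0176), giving a difference of -4.35 (SE 0.71, 95% interval -5.85 to -2.85, adjusted p = 0.312). Over the 33 alternatives the Serpinh1 difference ranged from -5.43 to -3.28, and with the background set as a term its limma-trend adjusted p was 0.0434. In level, the depleted tumours of the kinds met: 609 ± 272 (SD, n = 3) in Type 1 and 422 ± 286 (SD, n = 4) in Type 2, against 163 ± 70.8 (SD, n = 5) and 2109 ± 1117 (SD, n = 4) in the controls.

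Only 32 genes (0.121%) had non-overlapping libraries in both kinds and in opposite directions, 30 higher in Type 1 and lower in Type 2 (0.113%), and 2 the reverse (0.00756%). For scale, 339 genes (1.28%) did not overlap in both kinds in the same direction, and 39.1% did not overlap in Type 1, whatever they did in Type 2; there the background sets also separate the groups. The named genes Serpinh1, Fndc3b and Ero1a were among the 30. Others were Txndc12, a thioredoxin-like protein of the endoplasmic reticulum, Lrrc8c, a subunit of volume-regulated anion channels, Pycard, the inflammasome adaptor ASC, and Eed, a subunit of Polycomb repressive complex 2. The reverse pair were Asic4, a member of the acid-sensing channel family, with responses of -0.68 and 1.54, and Rnf39, with -0.54 and 0.69. All but the named genes were picked after their values were seen.

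Vegfa and Angpt2, secreted factors that open and destabilise blood vessels, differed in the same direction. Vegfa (chr17:46016993-46032369) stood at 733, 488, 344, 659 and 810 normalized counts in Type 1 controls and 1271, 3724 and 667 in Type 1 depleted tumours, which overlap. In Type 2 it stood at 1852, 1999, 2592 and 2563 in controls and 874, 880, 648 and 502 after depletion, which do not. The Vegfa responses were 1.34 (SE 0.44) and -1.65 (SE 0.42, limma-trend adjusted p = 0.0414), and the difference was -2.99 (SE 0.61, adjusted p = 0.334). Angpt2 (chr8:18690263-18741562) went from 129, 126, 141, 148 and 222 to 376, 660 and 186 normalized counts in Type 1, and from 443, 399, 698 and 632 to 290, 132, 170 and 134 in Type 2. Again only the Type 2 libraries separated, and the Angpt2 difference was -2.87 (SE 0.53).

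Neat1 (chr19:5824708-5845478), the long non-coding RNA that builds nuclear paraspeckles, had 6827, 11020, 13670 and 6805 normalized counts in Type 2 controls and 2300, 3064, 917 and 1588 after depletion. Its Type 1 levels were 516, 646, 649, 344 and 285 in controls and 595, 5475 and 1427 in depleted tumours, so 1 depleted tumour lay within the range of the controls. The Neat1 difference was -4.20 (SE 0.79). Ero1a, the oxidase that recycles protein disulfide isomerase, had a difference of -2.29 (SE 0.46), with 206 to 279 against 322 to 749 normalized counts in Type 1 and 633 to 1688 against 318 to 467 in Type 2. Ugdh, which makes the UDP-glucuronate from which hyaluronan is built, differed by -2.60 (SE 0.52), and Iqgap1, a scaffold of the actin cytoskeleton, by -2.08 (SE 0.41). Fndc3b, a membrane protein of the endoplasmic reticulum, differed by -1.90 (SE 0.33), Tgif1, a homeobox repressor of TGF-beta signalling, by -2.73 (SE 0.56), and Ier3, an immediate early gene, by -3.15 (SE 0.67).

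**Figure D2:**
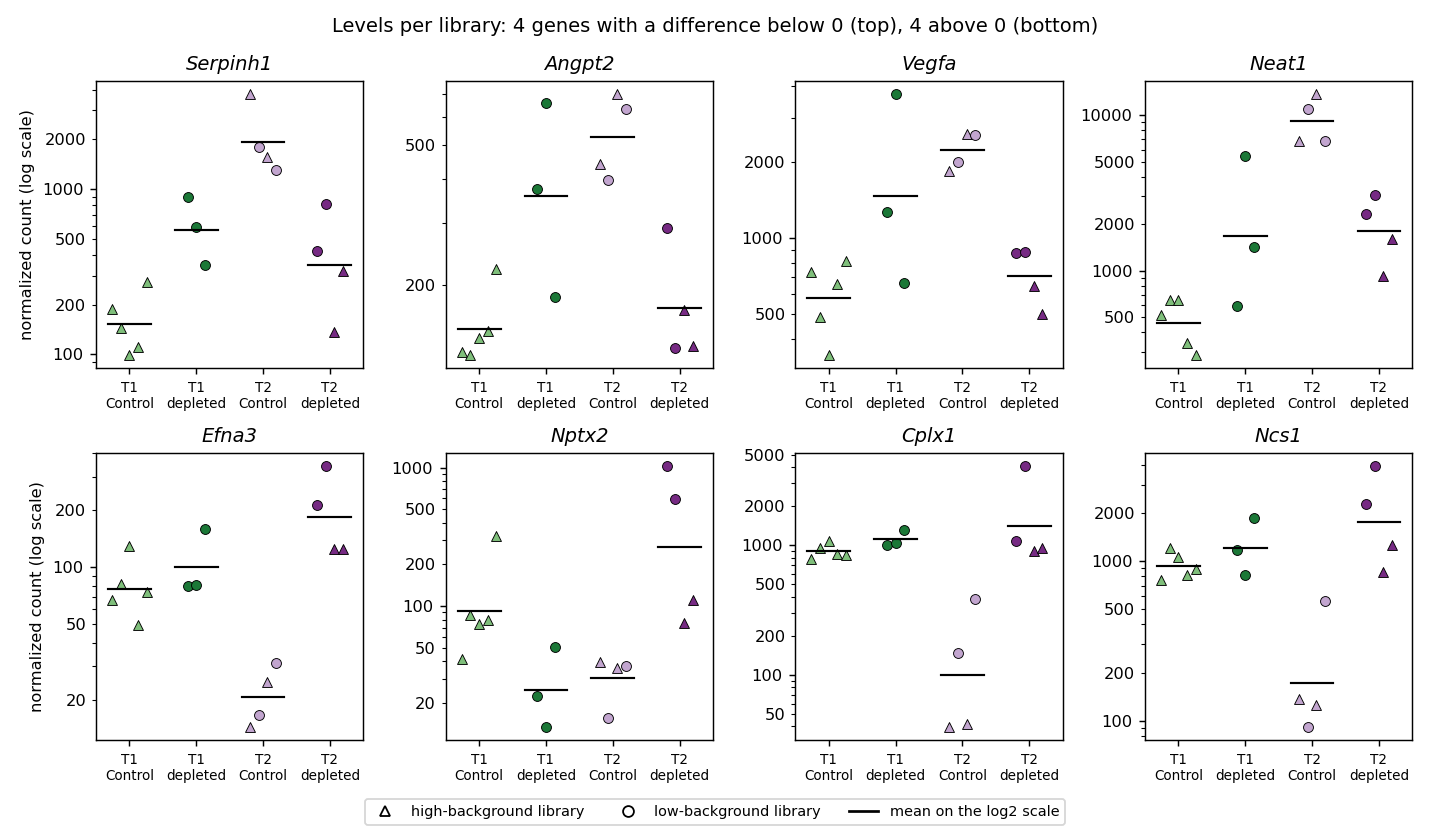
Normalized counts (log axis) of 8 named genes in each of the 16 libraries, with triangles for high-background and circles for low-background libraries and bars at the mean on the log2 scale. In the upper row the Type 2 controls are highest on average, and the depleted groups of the kinds lie closer to each other than the controls do. Angpt2 and Vegfa are still higher on average in Type 1 depleted than in Type 2 depleted tumours. In the lower row the Type 2 controls are lowest on average, except that Nptx2 is about as low in the Type 1 depleted tumours.

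The 10 named genes with a difference above 0 were Efna3, Nptx2, Tmem169, Scrt2, Cyria, Samd15, Cplx1, Tmem267, Syndig1l and Ncs1, with differences from 1.94 to 4.97. In 6 of the 10 the responses had opposite signs, lower in Type 1 and higher in Type 2. The other 4 (Efna3, Scrt2, Cplx1 and Ncs1) were higher in both, and their small Type 1 responses turned below 0 with the background set as a term and, except for Efna3, under upper quartile, quantile and cyclic loess scaling. The Type 1 response of Syndig1l turned to as high as 0.17 under quantile scaling. In Type 2 the depleted libraries of 6 genes lay above the controls without overlap, against 3.86% of all genes. The Type 2 rise of 7 of the 10 passed an adjusted threshold of 0.05 by limma-trend, against 2.37% of all genes. With the background set as a term, 5 of the 10 differences passed it, against 0.548% of all genes above 0. These counts use values that entered the choice of the genes, so they are a description and test nothing. The Type 2 call held in all 33 alternatives for Efna3, Scrt2 and Cplx1 and was lost in up to 9, for Syndig1l. Cyria, Samd15 and Tmem267 did not pass in Type 2, and their Type 1 responses (-2.03, -2.34 and -1.04) were as large as or larger than their Type 2 responses (1.85, 0.65 and 0.90).

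Cplx1 (chr5:108518554-108550024) encodes complexin 1, which clamps and triggers the fusion of synaptic vesicles. It had 779, 946, 1081, 859 and 845 normalized counts in Type 1 controls and 1014, 1051 and 1321 in Type 1 depleted tumours, and 39.3, 148, 41.9 and 386 in Type 2 controls and 1087, 4082, 908 and 957 in Type 2 depleted tumours. The Type 2 controls thus lay below all the other 12 libraries. The Cplx1 responses were 0.32 (SE 0.62) and 3.81 (SE 0.60, limma-trend adjusted p = 0.00917), and the difference was 3.49 (SE 0.86, adjusted p = 0.433). With the background set as a term the difference was 5.34 (SE 0.67, adjusted p = 0.0114), the smallest adjusted p of that fit. Over the 33 alternatives the Cplx1 difference ranged from 2.30 to 5.34.

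Nptx2 (chr5:144545902-144557478), a secreted pentraxin that clusters glutamate receptors at synapses, had the largest difference of the named genes, 4.97 (SE 1.08, limma-trend adjusted p = 0.334). It stood at 41.3, 86.1, 73.7, 79.9 and 321 normalized counts in Type 1 controls and 22.5, 13.3 and 50.4 in Type 1 depleted tumours, an overlap of 1 library on each side. In Type 2 it stood at 39.3, 15.6, 35.6 and 36.8 in controls and 1024, 589, 75.5 and 110 after depletion, with no overlap. Ncs1 (chr2:31245823-31295989), a neuronal calcium sensor, went from 136, 90.7, 126 and 562 to 2270, 3924, 859 and 1251 in Type 2, while its Type 1 groups overlapped (757 to 1204 and 818 to 1868). The Ncs1 difference was 2.97 (SE 0.75). Efna3 (chr3:89313899-89322965), a membrane-bound ligand of Eph receptors, went from 14.3, 16.7, 24.9 and 31.2 to 213, 341, 125 and 125 in Type 2 and overlapped in Type 1 (49.8 to 130 and 79.2 to 160), with a difference of 2.69 (SE 0.58). Scrt2, a zinc finger repressor of newborn neurons, differed by 2.40 (SE 0.55), and Cyria, a regulator of Rac signalling to actin, by 3.88 (SE 0.90).

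**Figure D3:**
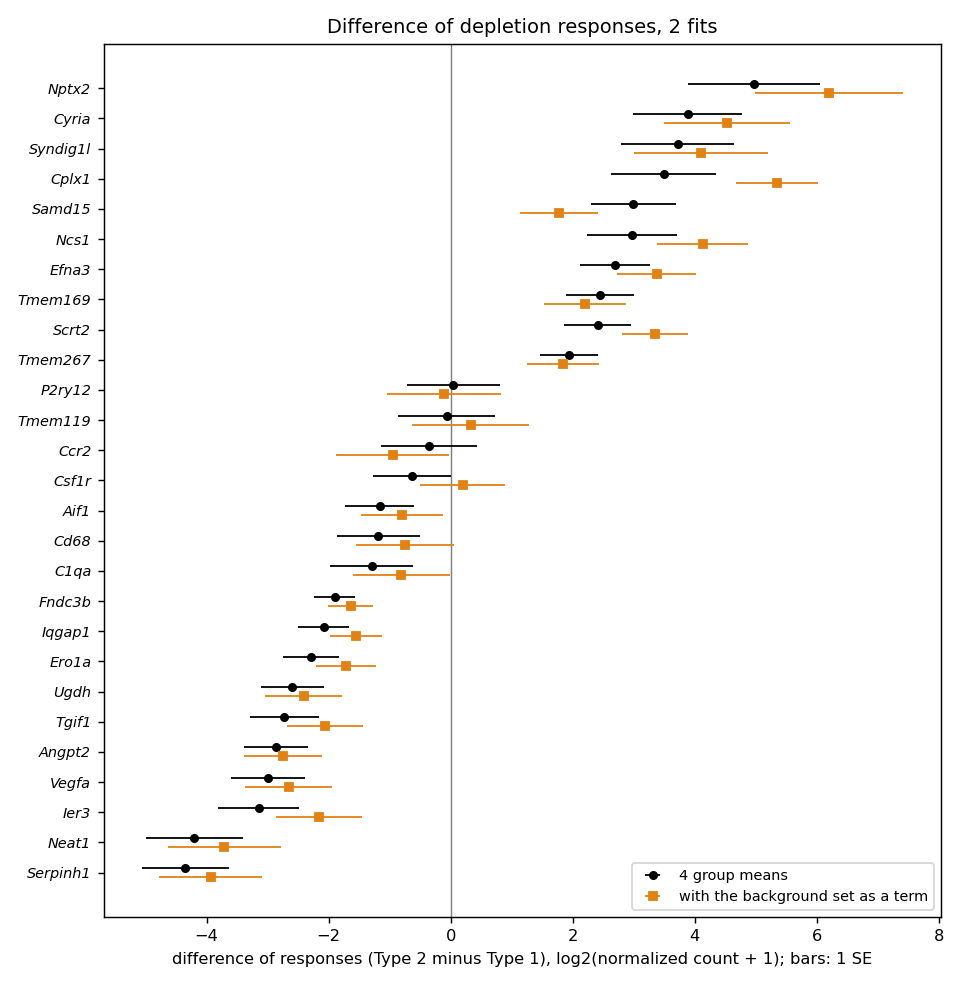
Difference of responses (Type 2 minus Type 1, log2 scale, bars 1 SE) for the 20 named genes and 7 macrophage, microglia and monocyte genes, in the fit of 4 group means (black) and with the background set as a term (orange). The 20 named genes keep their side of 0 in both fits, while Tmem119, P2ry12 and Csf1r lie near 0 and change side between them.

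Because background and depletion coincide in Type 1, the contrast was also fitted with the background set as a term, which takes the size of the background effect from the Type 2 libraries. In that fit 166 genes (0.627%) were past an adjusted p of 0.05 by limma-trend, 145 above 0 (0.548%) and 21 below (0.0794%), and all 166 had responses of opposite sign there. Of the 166, 129 also passed for the Type 2 response in the fit of 4 group means, against 3.61% of all genes. That response is part of the difference, so the 129 are a description. Beside Cplx1, Ncs1, Syp, Syn1 and Rab3a, those above 0 included Cdk5r1, the activator of the neuronal kinase CDK5, Nmnat2, an axon survival enzyme, and Kif5c and Kif1a, motors of axonal transport. The neuronal lists held 7 of the 166, all above 0, where the share over all genes was 0.548%. They were 3 of 18 synaptic vesicle release genes and 2 of 15 neuron identity genes. The others were 1 of 16 voltage-gated channels and 1 of 10 neuronal calcium sensors. The remaining neuronal lists held 0: excitatory and inhibitory neurons (0 of 17), glutamate and GABA receptors (0 of 16), postsynaptic density (0 of 14), immediate early (0 of 14) and axon guidance (0 of 19). Beside Serpinh1, the 21 below 0 included Kdelr3, a receptor that returns proteins to the endoplasmic reticulum, Hoxc4, a homeobox factor, and Vmn2r7 and Olfr63, from the receptor families that define the background sets. Of the genes named here, Cdk5r1, Nmnat2, Kif5c, Kif1a, Kdelr3, Hoxc4, Vmn2r7 and Olfr63 were picked after their values were seen. Single libraries decided the count: it was 0 without Type 1 TAM depleted 1, Type 2 Control 1 or Type 2 TAM depleted 2, 1 without Type 1 TAM depleted 2, 4 without Type 1 Control 2, 57 without Type 1 Control 4, 84 without Type 1 Control 3, 110 without Type 1 Control 1, 497 without Type 2 TAM depleted 1 and 1625 without Type 1 TAM depleted 3.

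Most macrophage genes had a lower response in Type 2 than in Type 1. Of the 24 macrophage genes, 22 had a difference below 0 and 3 had an unadjusted p under 0.05, with a median difference of -1.05 against 0.16 for all genes. Over all genes, 56% had a difference above 0. An unadjusted p under 0.05 was held by 10.1%, 4.87% with a difference below 0 and 5.2% above. In Type 2, 1.24% of all genes fell past the threshold and 2.37% rose. These shares are the scale for the counts in this list and those below. The macrophage median difference was -0.28 with the high-background and -1.67 with the low-background Type 2 libraries only. The median responses were -0.18 in Type 1 (0.01 without Type 1 Control 5) and -1.39 in Type 2, where 4 of the 24 fell past the threshold: Fcer1g, the signalling chain of Fc receptors, Cd14, the lipopolysaccharide co-receptor, Ptprc, the pan-leukocyte phosphatase CD45, and Adgre1. C1qa, a complement subunit made by macrophages and microglia, stood at 418, 1463, 443 and 1059 normalized counts in Type 2 controls and 227, 233, 230 and 500 after depletion, an overlap of 1 depleted library. In Type 1 it stood at 312, 181, 251, 214 and 485 in controls and 177, 541 and 174 in depleted tumours. The C1qa difference was -1.30 (SE 0.68, limma-trend adjusted p = 0.507), ranging from -0.26 with the high-background to -2.34 with the low-background Type 2 libraries only, and was -0.76 without Type 1 TAM depleted 2.

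Aif1, the actin-binding protein IBA1, had 71.5, 107, 47.2 and 91.8 normalized counts in Type 2 controls and 20.5, 36.5, 30.2 and 26.2 in depleted tumours, with no overlap. In Type 1 the Aif1 groups overlapped (19.6 to 70.4 and 28.1 to 44.8), and the difference was -1.17 (SE 0.57, limma-trend adjusted p = 0.502). For Csf1r, the CSF1 receptor, the difference was -0.64 (SE 0.64, adjusted p = 0.652), and for Cd68, a lysosomal protein, -1.19 (SE 0.68, adjusted p = 0.518), or -0.56 without Type 1 TAM depleted 2. Ccr2, the receptor that draws monocytes into tissue, differed by -0.36 (95% interval -2.02 to 1.30). The microglial genes Tmem119 and P2ry12 differed by -0.07 (95% interval -1.76 to 1.62) and 0.04 (95% interval -1.57 to 1.66), intervals that span several-fold changes either way. The 10 microglia genes had median responses of -0.58 and -0.48 and a median difference of -0.05.

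Antigen presentation genes had larger differences than the macrophage genes. All 11 MHC class I genes had a difference below 0, 8 with an unadjusted p under 0.05, and 9 had opposite signs, with median responses of 0.31 in Type 1 and -2.07 in Type 2 and a median difference of -2.48. The Type 1 median of MHC class I turned below 0 under upper quartile (-0.08), quantile (-0.05) and cyclic loess scaling (-0.18), with either background term (-0.76 and -0.30) and without Type 1 TAM depleted 2 (-0.11). The sign of the median difference held in all 33 alternatives. In Type 2, H2-D1, a classical class I heavy chain, Erap1, the peptide trimming enzyme, and H2-Q4, a non-classical class I molecule, fell past the threshold. H2-K1, another classical heavy chain, had 869, 4352, 2716 and 5926 normalized counts in Type 2 controls and 240, 1390, 301 and 413 after depletion, with 1 depleted tumour above the lowest control. Type 1 controls had 1228, 155, 336, 265 and 374 and Type 1 depleted tumours 1111, 1559 and 162, so the groups overlapped. The H2-K1 difference was -3.48 (SE 1.12, limma-trend adjusted p = 0.462). B2m, the invariant light chain, differed by -2.54 (SE 0.84).

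The 7 MHC class II genes all had a difference below 0, with a median of -2.61, and 1 had an unadjusted p under 0.05: H2-DMa, a peptide loading chaperone, at -2.61 (SE 0.83). Their median responses were -0.66 in Type 1 and -3.41 in Type 2, and 0 of the 7 passed the threshold in Type 2. The summed class II level was 2867 to 25990 normalized counts in Type 2 controls and 402 to 4040 in depleted tumours, and 554 to 2891 and 171 to 4429 in Type 1. Leaving out Type 1 TAM depleted 3, the library with the lowest sum, turned the Type 1 median of MHC class II to 0.90 and the median difference to -4.19, and leaving out Type 1 TAM depleted 2 moved the latter to -1.34. With library quality weights the Type 1 median was 0.44 and the median difference -4.59. Ciita, the master regulator of class II transcription, differed by -1.50 (SE 0.87). T cell genes, as markers of other cells that carry or induce these molecules, had median responses of -1.51 and -1.73 with a median difference of -0.33, which leaving out single libraries took from -1.18 (without Type 1 TAM depleted 3) to 0.39 (without Type 2 TAM depleted 1), and Cd3d was at 0 in 1 depleted tumour of each kind. Their part in the MHC result was not tested.

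**Figure D4:**
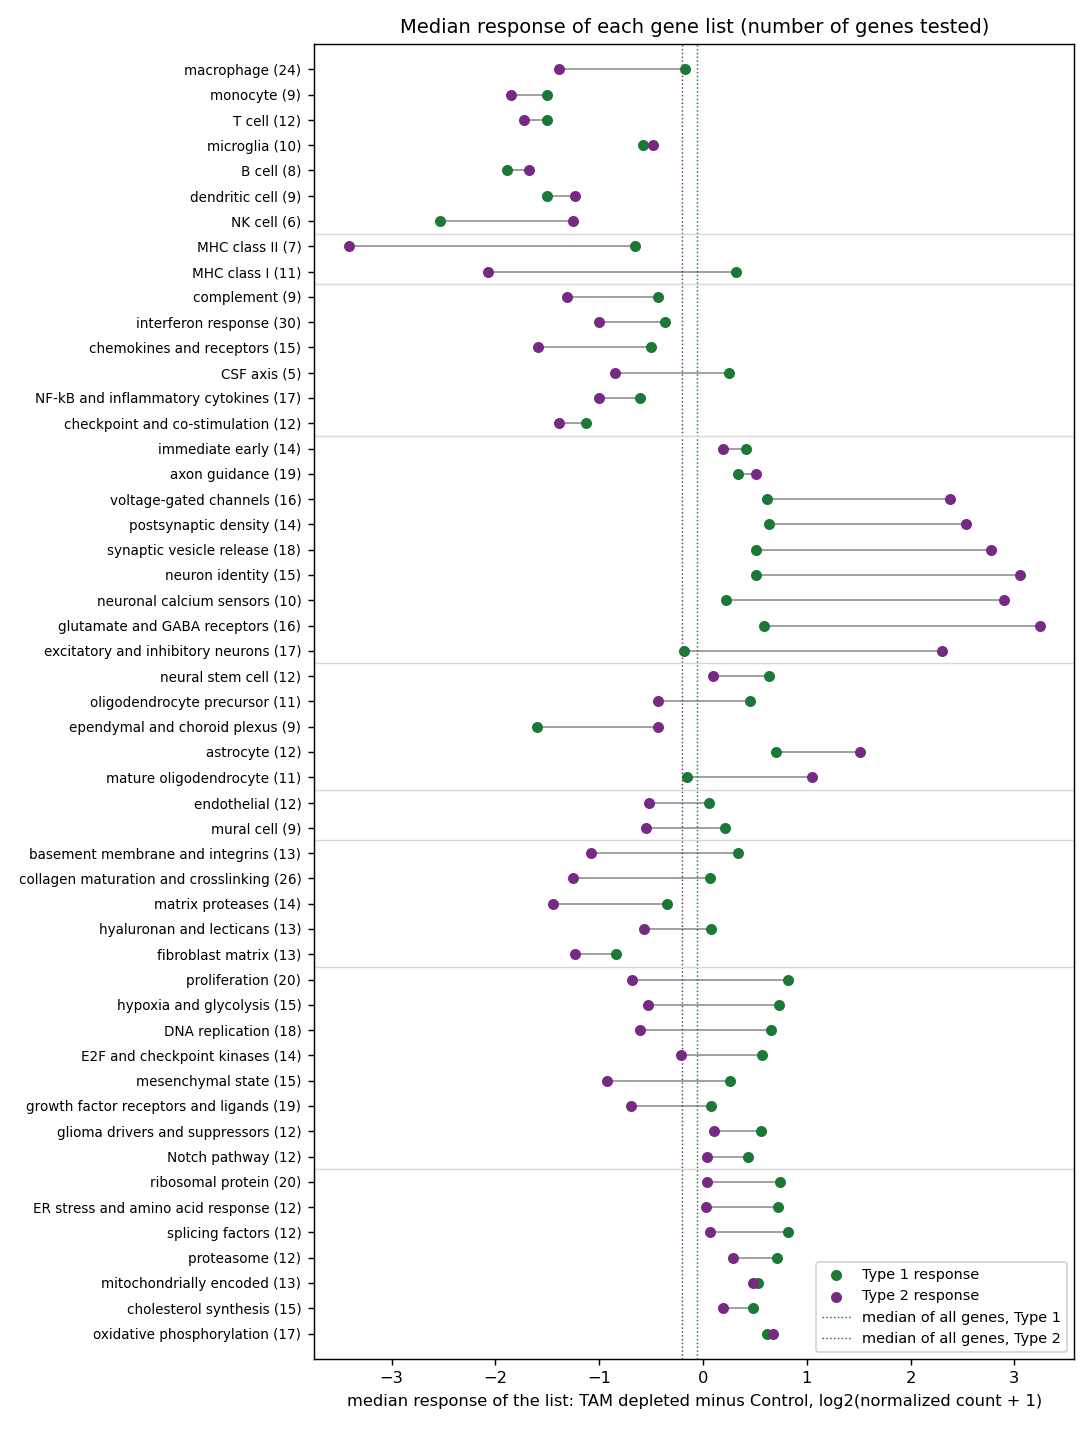
Median response of each gene list in Type 1 (green) and Type 2 (purple), TAM depleted minus Control on the log2(normalized count + 1) scale, grouped by role, with the number of genes tested in brackets and dotted lines at the medians of all genes (-0.06 and -0.21). Neuronal and synaptic lists, apart from axon guidance and immediate early genes, lie furthest to the right in Type 2. MHC, matrix and macrophage lists lie further left in Type 2, and proliferation and replication lists lie on opposite sides of 0.

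Neuronal lists had the largest median differences above 0, apart from 6 predicted genes that mark the high-background libraries, such as Gm10800 and Gm10801 (median 3.36, and -3.20 with the background set as a term). The axon guidance and immediate early lists were not among these large differences (medians 0.13 and -0.23). Of 15 neuron identity genes, 15 had a difference above 0 and 8 an unadjusted p under 0.05, with a median of 2.43. In Type 2, 9 of them rose past the threshold, and the median responses were 0.51 in Type 1 and 3.05 in Type 2. Snap25 (chr2:136713453-136782428), a vesicle fusion protein, had 207, 109, 96.2 and 1253 normalized counts in Type 2 controls and 4529, 14110, 2372 and 5992 after depletion, against 1162, 3204, 4643, 1452 and 830 in Type 1 controls and 2622, 2281 and 6191 in Type 1 depleted tumours. The Type 2 groups did not overlap and the Type 1 groups did, and Type 2 Control 4 was the one Type 2 control within the range of Type 1. The Snap25 difference was 3.72 (SE 1.08, limma-trend adjusted p = 0.455). Rbfox3, the nuclear neuron marker NeuN, differed by 2.79 (SE 0.76), Celf4, a neuronal splicing factor, by 3.06 (SE 0.82), and Syn1, the vesicle protein synapsin 1, by 3.32 (SE 1.05).

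Markers of excitatory and inhibitory neurons formed 1 list. All 17 of its genes had a difference above 0, 12 with an unadjusted p under 0.05, with a median of 3.15 from responses of -0.18 and 2.30, and 4 of the 17 rose past the threshold in Type 2. The Type 1 median was 0.38 without Type 1 TAM depleted 2. Slc17a7, the vesicular glutamate transporter of cortical excitatory neurons, had 100, 47.9, 137 and 47.6 normalized counts in Type 2 controls and 3392, 10670, 332 and 3304 after depletion, without overlap. Its Type 1 groups overlapped widely, with 411 to 2303 in controls and 87.1 to 3768 in depleted tumours, and the difference was 4.99 (SE 1.48). Gad1, which makes the inhibitory transmitter GABA, differed by 4.28 (SE 1.28), with 1 Type 2 control (1232) within the range of the depleted tumours (872 to 3861). Tbr1, a transcription factor of deep cortical layers, differed by 2.81 (SE 0.90), and Drd2, the dopamine receptor of striatal neurons, by 3.63 (SE 1.30) without passing in Type 2 (limma-trend adjusted p = 0.183).

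Genes of synaptic transmission moved as the identity genes did. All 18 synaptic vesicle release genes had a difference above 0 (median 2.34), 11 with an unadjusted p under 0.05, and 11 rose past the threshold in Type 2. Beside Cplx1 these included Syp, the vesicle protein synaptophysin (difference 2.88, SE 0.81), and Rab3a, a vesicle GTPase (2.54, SE 0.76), while Syt2, a calcium sensor of fast release (2.10, SE 0.72), had an adjusted p of 0.0501 by limma-trend in Type 2. The 10 neuronal calcium sensors had a median difference of 2.58 and all lay above 0, and their Type 1 median of 0.22 was below 0 under upper quartile, quantile and cyclic loess scaling and with either background term. Hpca, or hippocalcin, differed by 3.88 (SE 1.11), Vsnl1, or visinin-like 1, by 4.81 (SE 1.61), and Hpcal4 by 4.69 (SE 1.82), or 2.63 without Type 1 TAM depleted 2. Glutamate and GABA receptors (16 genes, median 2.64, or 1.75 without Type 2 Control 2), the postsynaptic density (14 genes, 1.88) and voltage-gated channels (16 genes, 1.84) had differences above 0 in 15, 14 and 16 genes.

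The sign of the Type 1 response of neuronal genes depended on the scaling. Median Type 1 responses of neuron identity and synaptic vesicle release were 0.51 each and turned to -0.16 and -0.05 under quantile scaling, -0.19 and -0.10 under cyclic loess scaling and -0.69 and -0.74 with the background set as a term. The median difference of neuron identity stayed between 1.69 and 3.70. The summed level of the neuron identity genes was 15490 to 29930 normalized counts in Type 1 controls, 25280 to 43880 in Type 1 depleted tumours, 3571 to 14980 in Type 2 controls and 27970 to 95640 in Type 2 depleted tumours. By this sum the Type 2 controls lay below every library of the other 3 groups. By the sums of other neuronal lists the highest Type 2 control reached into the range of Type 1 controls, at 13920 against a lowest Type 1 control of 9333 for synaptic vesicle release and 4108 against 2236 for excitatory and inhibitory neurons. Lists of other host cells were divided. The median difference was 0.88 for 12 astrocyte genes (0.46 without Type 1 TAM depleted 1 and 1.45 without Type 2 Control 2). It was 1.41 for 11 mature oligodendrocyte genes (0.51 without Type 1 TAM depleted 2, 0.76 without Type 2 Control 2 and 2.33 without Type 1 TAM depleted 3). Endothelial, mural and microglia genes had medians of -0.54, -0.53 and -0.05. The part of brain tissue in the sampled pieces was not tested.

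Hypoxia and glycolysis genes differed in the direction of Vegfa. Of 15 genes, 14 had a difference below 0 and 8 an unadjusted p under 0.05, with median responses of 0.73 in Type 1 and -0.53 in Type 2 and a median difference of -1.42, or -0.94 without Type 1 TAM depleted 2. In Type 2, Vegfa, Egln3, an oxygen-sensing prolyl hydroxylase, Car9, a carbonic anhydrase, and Ankrd37, a hypoxia-induced ankyrin repeat protein, fell past the threshold. Hk2, which commits glucose to glycolysis, had a difference of -2.48 (SE 0.69), with 318 to 732 normalized counts in Type 2 controls against 66.9 to 255 after depletion, without overlap, and 193 to 882 against 318 to 873 in Type 1. Egln3 differed by -1.91 (SE 0.63) and Bnip3, a mitophagy receptor, by -1.42 (SE 0.48), the latter with a Type 1 response of 1.10 and a Type 2 response of -0.33. Without Type 1 TAM depleted 2 the differences of Egln3 and Bnip3 were -1.08 and -0.94. The Type 1 median of hypoxia and glycolysis was -0.06 with the background set as a term. Aldoa, a glycolytic aldolase, was the exception with responses of 0.81 and 0.84.

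Genes that mature and crosslink collagen, a list added after the values were seen and so no independent evidence, ran in the same direction. Of 26 genes, 22 had a difference below 0 (median of all 26 -1.20), 14 of them with an unadjusted p under 0.05, and 8 fell in Type 2: Serpinh1, Plod1, Fkbp10, Fkbp9, P3h4, P3h1, Fkbp14 and Loxl2. P4ha1, a collagen prolyl hydroxylase, differed by -2.11 (SE 0.49), Plod1, a lysyl hydroxylase, by -1.98 (SE 0.47), and Fkbp10, a prolyl isomerase that assists procollagen folding, by -2.21 (SE 0.53). Fkbp10 had 297, 338, 619 and 393 normalized counts in Type 2 controls and 86.5, 99.3, 56.1 and 133 after depletion, while Type 1 stood at 31.7 to 65.1 and 32.6 to 84.1. Those Type 2 controls lay above every other library. The Type 1 median of the list was 0.07 and fell to between -0.32 and -0.004 under upper quartile and cyclic loess scaling, with either background term and without Type 1 Control 4 or Type 1 TAM depleted 2. Lox, a lysyl oxidase, went the other way, with responses of -2.08 and 0.02.

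Basement membrane and integrin genes followed. Of 13 genes, 12 had a difference below 0 and 7 an unadjusted p under 0.05, with a median of -1.52 from responses of 0.34 and -1.08, and Lama4 and Col4a1 fell past the threshold in Type 2. The Type 1 median turned to -0.05, -0.14 and -0.26 under upper quartile, quantile and cyclic loess scaling. Lama4, the laminin chain of vessel walls, had 1283, 967, 2692 and 1579 normalized counts in Type 2 controls and 267, 408, 325 and 536 after depletion, and 211 to 306 and 168 to 278 in Type 1. The Lama4 difference was -1.80 (SE 0.45), that of Itgb1, the common integrin beta chain, -1.94 (SE 0.53), and those of the laminin chains Lamc1 and Lama5 -1.58 (SE 0.47) and -1.59 (SE 0.47). Endothelial genes, as markers of the cells that carry these proteins, had median responses of 0.05 and -0.52 and a median difference of -0.54, or -0.31 without Type 1 TAM depleted 2 and -0.33 without Type 2 Control 3. Their summed level was 2018 to 2385 and 1718 to 2668 normalized counts in Type 1 and 2613 to 5312 and 2119 to 3556 in Type 2, and their part was not tested.

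Proliferation genes had opposite signs throughout. All 20 were higher in Type 1 depleted tumours and lower in Type 2 depleted tumours than in controls, with median responses of 0.82 and -0.68, a median difference of -1.44 and 4 genes with an unadjusted p under 0.05. None passed the threshold in either kind. Over all genes, 18.7% were higher in Type 1 and lower in Type 2. The Type 1 direction was not particular to proliferation genes. All 20 ribosomal protein genes, all 12 proteasome genes and all 12 splicing factors were also higher in Type 1 depleted tumours. In Type 2, 7 of the 20 ribosomal protein genes, 1 of the 12 proteasome genes and 4 of the 12 splicing factors were lower. Mki67, the proliferation antigen Ki-67, had 4029, 3184, 1666, 3068 and 4302 normalized counts in Type 1 controls and 10020, 6808 and 4149 in depleted tumours, and 4568, 10760, 3301 and 4477 in Type 2 controls and 5978, 890, 6720 and 1339 after depletion. In Type 2 only TAM depleted 2 and 4 lay below the controls, and 1 and 3 lay among them. The Mki67 difference was -2.07 (SE 0.87, limma-trend adjusted p = 0.485), and Top2a, the topoisomerase of dividing cells, differed by -2.01 (SE 0.88). Without Type 2 TAM depleted 2 the median difference of proliferation was -0.91, and it was -0.54 with the high-background and -2.32 with the low-background Type 2 libraries only. The Type 2 median was 0.22 in the high-background libraries, so its sign rested on the low-background pair.

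DNA replication genes followed the same libraries. All 18 had a difference below 0, 16 with opposite signs, with a median of -1.25. That median was -0.87 without Type 2 TAM depleted 2. It was -0.59 with the high-background and -1.96 with the low-background Type 2 libraries only. The Type 2 median of DNA replication was -0.61 and turned to 0.05 in the high-background libraries. Pole, a replicative polymerase, differed by -1.90 (SE 0.65), Tyms, thymidylate synthase, by -1.98 (SE 0.73), and Mcm3, a subunit of the replicative helicase, by -1.73 (SE 0.71). Pold1, another polymerase subunit, differed by -1.44 (SE 0.69). Genes that every cell uses also had Type 1 responses above 0: the medians were 0.74 for 20 ribosomal protein genes and 0.82 for 12 splicing factors, with Type 2 medians of 0.04 and 0.06. Their median differences were -0.69 and -0.67, against -1.44 and -1.25 for proliferation and DNA replication. With the background set as a term the ribosomal protein and splicing factor medians turned to 0.16 and 0.04, and the other 2 stayed at -1.40 and -0.85. The ribosomal protein median was also -0.30 without Type 2 Control 2 or Type 2 TAM depleted 4, -0.36 without Type 1 Control 3 and -1.10 without Type 1 TAM depleted 3, and that of splicing factors -0.40 without Type 2 TAM depleted 4.

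Read as levels, the differences took several forms. For the MHC, macrophage, collagen maturation and hypoxia lists the controls of the kinds stood further apart than the depleted tumours. The median Type 2 minus Type 1 gap was 2.87 among controls and 0.28 among depleted tumours in the class II list. It was 2.28 and 0.07 in the class I list, 1.16 and -0.03 for macrophage genes, 1.69 and 0.40 for collagen maturation and crosslinking, and 0.96 and -0.22 for hypoxia and glycolysis. Neuronal lists other than immediate early genes lay on opposite sides, lower in Type 2 among controls and higher among depleted tumours. The gaps were -1.74 and 0.66 for neuron identity, -1.32 and 0.92 for synaptic vesicle release and -1.64 and 1.56 for excitatory and inhibitory neurons. Some matrix lists stayed apart among depleted tumours too, with gaps of 2.12 and 1.13 for fibroblast matrix and 1.41 and 0.99 for hyaluronan and lecticans. For proliferation and DNA replication the controls lay close (-0.02 and -0.21) and the depleted tumours apart (-1.39 and -1.38). The 4 Type 2 controls lay above all the other 12 libraries in 6 of the 10 named genes below 0 and below them in 5 of the 10 above 0, against 1.37% and 0.71% of all genes. These counts use the values that chose the genes and are a description. Among the lists, they lay above in 9 of 26 collagen maturation genes, 4 of 13 basement membrane and integrin genes and 3 of 11 MHC class I genes, and below in Rbfox3 and Nefh of the neuron identity genes.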

How the data were processed

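All 16 libraries were used, from 1 deposited table of 26466 genes; the authors' tables of each tumour kind alone were left out. Values in it are on a log2 scale, and the deposited log2 values were found to be variance-stabilized, since 1 lowest value (3.74) recurs in all columns. Inverting that transformation gave normalized counts, and 100% of them were whole multiples of 1 read (tolerance 0.05 reads). Upstream steps, per the labels' protocols, were TRIzol and miRNeasy Micro extraction and a SMART-Seq v4 Ultra Low Input library. That kit does not mark strand, so a gene and an overlapping or antisense neighbour share reads. STAR 2.7.8a, GRCm38 and DESeq2 are named, per the submitters' processing notes, but no annotation or counting tool is.

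The test was limma-trend (limma 3.58.1 in R 4.3.3) on log2(normalized count + 1), as a single fit of the 4 groups' means with 12 residual and 4.74 prior degrees of freedom. It was 2-sided, Benjamini-Hochberg adjusted over 26463 genes (those at 10 normalized counts or above in 3 or more libraries), at a threshold of 0.05. The steps were tested on simulated counts without background sets, in which only the Type 2 depleted libraries carried set changes. That test does not bear on the background that coincides with depletion in Type 1. Replicate libraries all differed beyond sampling noise (chi-square per degree of freedom of 9.43 or higher). The rule for named genes asked for the 10 largest differences each way past the threshold. As 0 passed, it gave the 10 of smallest unadjusted p each way whose highest group averaged at least 50 normalized counts, without predicted or unnamed models and receptor genes. It also took the 4 members of smallest p from each list described, and 7 fixed macrophage, microglia and monocyte genes. Members and lists were chosen with earlier results of these data known. Gene coordinates are those of GENCODE vM21 (GRCm38).

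Alternatives were other pseudocounts, filters and scalings, voom, library weights, robust moderation, the deposited log2 values, a replicate block, background terms, Type 2 libraries of 1 background set, and each library left out. Cyclic loess scaling, the log2 receptor reads as a term and the background term with libraries left out were chosen after seeing the data.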

Additional observations from a re-analysis of the deposited data

Results flagged for a closer look

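Among 27 genes in the 3 groups of 4 or 5 libraries (81 groups of values), 7 groups had 1 library far from the rest, where chance gives about 1 in 20. Nptx2 was at 15.6 normalized counts in Type 2 Control 2, with the other controls at 35.6 to 39.3. Cplx1 was at 4082 in Type 2 TAM depleted 2, with the others at 908 to 1087. Angpt2 was at 221.9 in Type 1 Control 5, with the others at 126 to 148. Iqgap1 was at 1784 in Type 2 Control 1, with the others at 2836 to 2993. Tgif1 was at 248.6 in Type 2 TAM depleted 1, with the others at 94.9 to 111. C1qa was at 499.9 in Type 2 TAM depleted 4, with the others at 227 to 233. P2ry12 was at 208.5 in Type 2 Control 4, with the others at 90.7 to 100.1.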

How the results depend on the processing

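The count of 0 genes past an adjusted p of 0.05 became 748 with library quality weights (441 above 0, 307 below), 166 with the background set as a term, 30 with the high-background and 18 with the low-background Type 2 libraries only. It was 0 under the other alternatives, leaving out each library included, where the smallest adjusted p was 0.0549. Unadjusted counts ran from 1359 without Type 1 TAM depleted 2 to 7318 with library weights, and voom gave 0 and 3171. The difference kept its sign in all 33 alternatives for each of the 20 named genes, and the list medians of macrophage, MHC, neuronal, hypoxia, collagen, basement membrane, proliferation and replication genes did too. Exceptions among the neuronal lists were axon guidance and immediate early genes, whose medians turned in 4 of the 33 each. Scaling moved the median difference of all genes by 0.183 (upper quartile), -0.228 (quantile), -0.178 (TMM), -0.213 (cyclic loess) and -0.411 (background set as a term), and the unadjusted split of 1377 above and 1289 below became 1725 and 876 with upper quartile, 1111 and 1694 with TMM and 1730 and 2248 with quantile scaling. Small differences of 4 genes changed sign: Tmem119 (upper quartile 0.11, background set 0.33, high-background 0.35, replicate block 0.22, cyclic loess 0.0086, receptor reads 0.15, libraries left out -0.52 to 0.78), P2ry12 (quantile -0.18, TMM -0.14, deposited log2 -0.013, voom -0.10, weights -0.25, background set -0.11, low-background -0.57, receptor reads -0.14, libraries left out -0.40 to 0.55), Csf1r (background set 0.19, high-background 0.21) and Ccr2 (high-background 0.10, libraries left out -0.70 to 0.34). The cause was not tested. Replicate numbers did not pair the tumours (correlations of same-numbered deviations -0.675 to 0.495), and the replicate block gave 0 genes for the difference and 286 for the Type 2 response. With 3 Type 1 depleted tumours and a median SE of 0.743, small differences could not be detected. Differences as large as 4.97 (Nptx2) and -4.35 (Serpinh1) did not pass the threshold either. The count of 0 therefore does not show that the responses were equal.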

Other observations

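The median differences of some lists lay near 0 and depended on the processing. Cholesterol synthesis genes had median responses of 0.48 in Type 1 and 0.20 in Type 2 and a median difference of -0.07, and oxidative phosphorylation genes 0.62 and 0.68 and a median difference of 0.18. With the background set as a term these differences were 0.52 and 1.18, and their sign turned under 10 and 5 of the 33 alternatives. Monocyte and T cell genes had median responses below 0 in both kinds. They were -1.51 and -1.85 for 9 monocyte genes and -1.51 and -1.73 for 12 T cell genes, and 0 of these genes passed the threshold in Type 2. In Type 1, 3 of the 9 monocyte genes were higher after depletion, and in Type 2 all 9 were lower. The summed monocyte level in Type 1 was 1841 to 2892 normalized counts in controls and 2807 to 4885 in depleted tumours. Over all genes, the 2 lower classes by mean level had Type 1 medians of -2.26 and -0.81. Axon guidance genes, unlike the synaptic genes, had medians of 0.34 and 0.51.

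NK cell genes were the one immune list with every difference above 0: 6 genes had a median of 1.31, from responses of -2.53 and -1.25. That median was 0.62 without Type 1 TAM depleted 3 and 2.18 without Type 2 TAM depleted 1. Its sign turned under quantile and cyclic loess scaling and with the background set as a term. The summed level was 2.29 to 50.5 normalized counts in Type 1 depleted tumours. On the log2 scale the mean level of the NK list was 2.11 to 4.625 in the 4 groups. All genes of the lowest class by mean level (2.36 to 3.95) had a median difference of 1.35, near that of the NK list. Mesenchymal state genes had a median difference of -0.97, which was 0.13 with the background set as a term and -0.58 without Type 1 TAM depleted 2.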
